A study of Mus musculus with 6 samples.

Results

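The genes described here are the germline segments from which mouse antibody variable regions are built: variable (V) and joining (J) segments of the heavy chain (Ighv, Ighj), the kappa light chain (Igkv, Igkj) and the lambda light chain (Iglv, Iglj). They were read in bulk RNA of primary macrophages from METRNL-/- (KO) mice and from METRNL+/+ (WT) mice, all cultured with the yeast Candida albicans for 6 h, with 3 libraries of each genotype. METRNL is the secreted protein meteorin-like. No uninfected libraries were analysed here, and the labels state neither the tissue the macrophages came from, nor the age, sex or strain of the mice, nor whether replicates were separate animals or cultures. P-values therefore measure no more than the spread between libraries, part or all of which may be technical.

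Members were all V and J segment genes, by the deposited biotype, with a value above 0 in at least 1 of the 6 libraries, except Ighv11-2, Ighv12-3, Igkv14-126 and Igkv4-91. Of 54532 genes, 190 met the rule. The file held 232 V and J segments, of which 38 had no read in any library and 4 were the named exceptions. The members were 90 Ighv, 4 Ighj, 84 Igkv, 5 Igkj, 3 Iglv and 3 Iglj segments, plus Gm43218, a V segment on chromosome 6 whose symbol carries none of these prefixes. Members were thus chosen by their FPKM in the same 6 libraries that are compared below, so their values are a description and the counts over them support nothing by themselves. At its edge, 11 members had 1 read in all 6 libraries together, against none in the 38 segments outside.

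Each developing B cell joins one V segment to one J segment, with a D segment between them in the heavy chain, and transcribes the joined exon with a constant region. A read in a V segment therefore comes mainly from a B-lineage cell that chose that segment, and the V reads of a sample list which segments its B cells use. In mice most light chains are kappa and a minority are lambda, whose locus holds few V segments. Reads that cross a joint contain bases absent from the germline, and the treatment of such reads by the aligner is not stated in the labels.

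The J segments are the shortest members and are shown because every variable region ends in one of them. Their germline sequences, from GENCODE M21 transcripts of GRCm38, are given in the sense direction, with the bases that encode the conserved tryptophan-glycine or phenylalanine-glycine motif in capitals.
Ighj1: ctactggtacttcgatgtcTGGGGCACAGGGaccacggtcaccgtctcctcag
Ighj2: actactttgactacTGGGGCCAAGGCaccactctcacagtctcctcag
Ighj3: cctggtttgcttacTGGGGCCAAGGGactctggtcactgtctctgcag
Ighj4: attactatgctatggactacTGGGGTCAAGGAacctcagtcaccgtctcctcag
Igkj1: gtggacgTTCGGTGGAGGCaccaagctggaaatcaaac
Igkj2: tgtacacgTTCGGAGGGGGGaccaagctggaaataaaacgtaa
Igkj3: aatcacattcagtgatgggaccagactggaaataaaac
Igkj4: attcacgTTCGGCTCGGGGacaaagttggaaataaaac
Igkj5: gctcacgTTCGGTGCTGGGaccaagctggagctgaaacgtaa
Iglj1: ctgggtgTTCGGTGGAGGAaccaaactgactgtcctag
Iglj2: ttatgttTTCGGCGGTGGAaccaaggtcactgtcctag
Iglj3: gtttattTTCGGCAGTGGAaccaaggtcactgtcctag
Iglj3p: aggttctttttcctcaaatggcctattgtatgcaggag
Iglj4: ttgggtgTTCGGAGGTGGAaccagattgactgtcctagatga
The letters searched, on the sense strand alone, were TGGGG followed after 4 bases by GG in the heavy chain and TTCGG followed after 4 bases by GG in the light chains. They were found in 4 of 4 heavy chain J segments and in 8 of 10 light chain J segments. Neither was found in the last 60 bases of any of 218 V transcripts (0%). The light chain letters were absent from Igkj3, which is regarded as non-functional in mice, and from Iglj3p. Iglj2 and Iglj4 were listed at 0 in all 6 libraries and are shown for comparison. Iglj2 and Iglj3 shared 89.5% of their bases. A further transcript of Ighj2 in the annotation is not printed.

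V segments are near each other in sequence, so the last 60 bases of 9 of them are given, for some members with high means and the lambda family. Capitals mark the TGN codon of the conserved cysteine that ends framework 3. It starts at base 52 or 53 of the 60 in the heavy chain segments shown, close to the junction. In the light chain segments it starts at base 21 to 35, further from the junction.
Ighv1-55: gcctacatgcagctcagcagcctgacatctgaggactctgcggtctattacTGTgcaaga
Ighv6-3: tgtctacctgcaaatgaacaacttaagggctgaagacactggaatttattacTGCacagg
Igkv1-117: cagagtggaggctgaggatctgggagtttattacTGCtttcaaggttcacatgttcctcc
Igkv1-110: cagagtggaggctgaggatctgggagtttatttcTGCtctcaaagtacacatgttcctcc
Igkv12-89: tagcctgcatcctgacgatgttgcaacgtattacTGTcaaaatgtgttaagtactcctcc
Igkv8-24: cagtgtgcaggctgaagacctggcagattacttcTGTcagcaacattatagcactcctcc
Iglv1: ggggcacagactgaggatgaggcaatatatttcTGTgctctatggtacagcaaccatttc
Iglv2: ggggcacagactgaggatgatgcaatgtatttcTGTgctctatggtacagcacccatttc
Iglv3: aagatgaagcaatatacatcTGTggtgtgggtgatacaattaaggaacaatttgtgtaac
The letters TANNNNTGN were found on the sense strand in the last 60 bases of 214 of 218 V transcripts (98.2%), against the first 60 bases of 68 of them (31.2%). Iglv1 and Iglv2 were 90.8% identical over their whole transcripts, and Iglv3 was 61.6% identical to Iglv1.

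The coordinates are those of GRCm38, as deposited, and every V member has 2 exons in the annotation, a leader exon and the V exon. Heavy chain members all lie on the minus strand of chromosome 12, kappa members on chromosome 6 with 33 V segments on the plus and 51 on the minus strand, and lambda members on the minus strand of chromosome 16. Transcripts of Ighv members were 347 to 480 bases long (median 353), and those of Igkv members 338 to 404 bases (median 362.5). The nearest other V segment was at least 97% identical for 11 of 90 Ighv members and for 7 of 84 Igkv members, for which the counting could split or drop shared reads. Of the segments with no read, 2 of 21 Ighv and 1 of 14 Igkv had so close a copy.

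Reads in genes came to 14772746, 15724897 and 14915816 in KO libraries 1 to 3 and to 14309247, 11026529 and 12458673 in WT libraries 1 to 3. Metrnl RNA, the check of the labels, stood at 51.2, 63.6 and 62.8 FPKM (fragments per length of gene and depth of library) in KO and at 93.5, 63.2 and 69.8 FPKM in WT. KO library 2 lay above WT library 2, and the difference of -0.33 ± 0.16 (log2, SE) did not pass the test (limma adjusted p = 0.181). The deleted part of the gene is not stated, so its RNA does not settle the genotype, and KO and WT below are the groups as labelled. KO library 1 and WT library 1 stood apart from the other 2 libraries of their group, with chi-square per degree of freedom of 59.4 and 59.4 in KO and of 42.2 and 39.6 in WT, against 2.30 between KO libraries 2 and 3 and 7.10 between WT libraries 2 and 3.

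V and J segment RNA was low in KO libraries and plain in WT libraries for all 3 chains. Summed over the 190 members, the level was 29.6, 16.8 and 24.6 FPKM in KO libraries 1 to 3 and 416.8, 564.4 and 510.1 FPKM in WT libraries 1 to 3. The highest KO library held less than the lowest WT library by a wide gap. The means were 23.7 ± 6.43 FPKM in KO and 497 ± 74.7 FPKM in WT (SD, n = 3 each), 21.0-fold lower in KO, or -4.39 on the log2 scale. In reads this was 242 over the 3 KO libraries and 4671 over the 3 WT libraries. In bulk samples, fewer B cells and less segment RNA per B cell cannot be told apart.

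**Figure D1:**
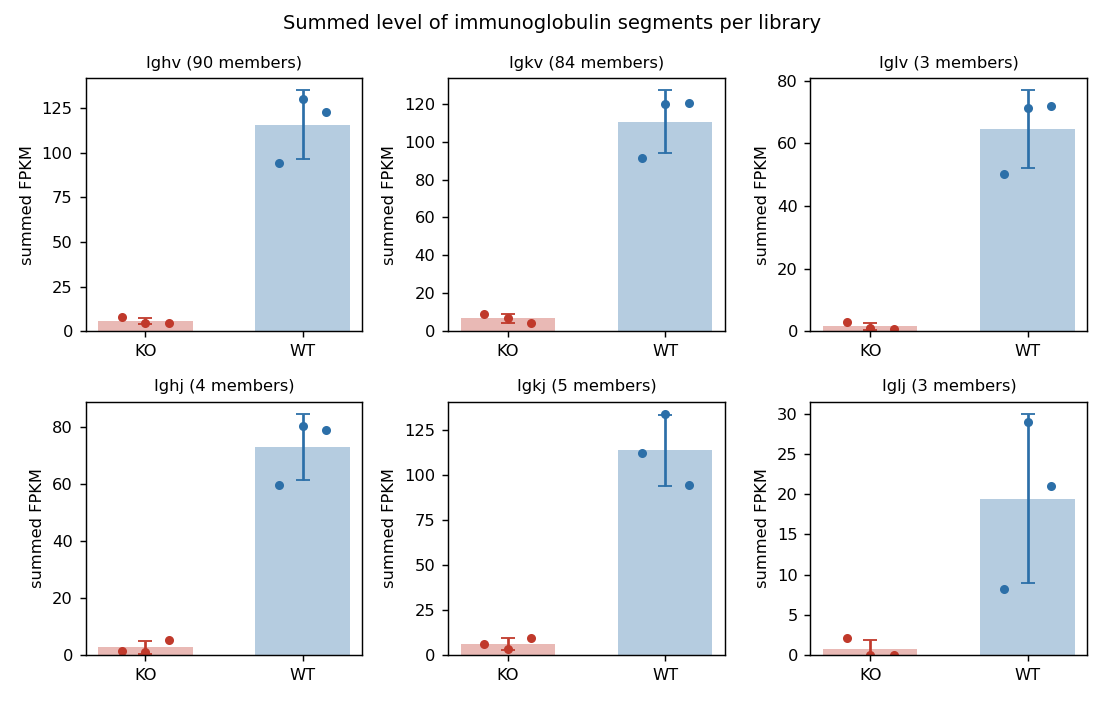
Summed FPKM of the members of each prefix, per library (points), with group means (bars) and SD (error bars, n = 3), KO on the left and WT on the right. In all 6 panels every KO library lies below every WT library, for example 4.50 to 7.96 FPKM in KO and 94.0 to 130.2 FPKM in WT for Ighv.

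Heavy chain V segments summed to 7.96, 4.87 and 4.50 FPKM in KO and to 94.0, 130.2 and 123.0 FPKM in WT, a 20.05-fold lower mean in KO. Kappa V segments summed to 9.26, 6.77 and 4.56 FPKM in KO and to 91.4, 119.7 and 120.2 FPKM in WT, 16.1-fold lower in KO. The 3 lambda V segments summed to 2.88, 1.00 and 0.687 FPKM in KO and to 50.2, 71.3 and 72.0 FPKM in WT, 42.3-fold lower in KO. The J segments lay 27.3-fold lower in KO for Ighj, 18.5-fold lower for Igkj and 28.3-fold lower for Iglj, the last resting on 1 read in KO and 28 reads in WT. None of the 6 prefix sums overlapped between the groups.

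Segment by segment, the same direction held for nearly every member. The filter of a mean of at least 0.5 FPKM kept 81 of 190 members, of which 73 were lower in KO at a limma adjusted p below 0.05, against 12.4% of all 11689 genes tested. None was higher, adjusted or at an unadjusted p under 0.05, against 15.7% of genes tested called higher. The median difference of the tested members was -1.48 (log2), beside 0.03 over all genes tested. Because 69 of the 81 passed the filter only through WT, those counts had to lean one way. The 12 members with a mean of at least 0.5 FPKM in KO too were Ighj3, Ighj4, Ighv1-52, Ighv1-55, Igkj2, Igkj3, Igkj5, Igkv1-117, Igkv10-96, Igkv12-89, Iglj1 and Iglv1, and of these Ighv1-52 was not called.

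Without the filter, 87 of the 190 members were called lower, against 4.17% of the 28477 genes with a value. All 3 KO values lay below all 3 WT values for 122 of 190 members, against 13.9% of genes with a value, and above them for 0. Among the 81 tested members this held for 77, against 19.9% of genes tested. The 109 members under the filter held 1 to 17 reads each (median 5), 48 reads in KO and 642 reads in WT in all. Across all members, 108 had no read in any KO library, 1 had none in any WT library and 81 had reads in both. The KO mean was the higher one for Igkv8-18 and Igkv11-125, both named after their values were seen. Igkv8-18 had 2 reads in KO library 2 and 1 read in WT library 2, and Igkv11-125 had 1 read in KO library 1. Gm43218 had 3 reads in WT library 1 alone. At such depths no difference was detectable for these 3.

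Among heavy chain V members, Ighv1-55 (chr12:115208095-115208591), of the large Ighv1 subgroup, had the highest mean, below that of Ighv11-2 outside the rule (23.3 FPKM in WT). Ighv1-55 stood at 1.13, 0.305 and 0.322 FPKM in KO and at 8.27, 10.4 and 9.05 FPKM in WT. The groups did not overlap, and the KO mean of 0.586 ± 0.472 FPKM was 15.8-fold lower than the WT mean of 9.25 ± 1.10 FPKM (SD, n = 3 each; log2 difference -2.73 ± 0.21 SE, limma adjusted p = 5.24e-04). Ighv6-3 (chr12:114391712-114392169) had the largest fall of the tested Ighv members, with no read in any KO library and 7.88, 11.2 and 9.43 FPKM in WT. Its 134 WT reads make it at least 48.8-fold lower in KO, with the floor of 3 reads over the 3 KO libraries (log2 difference -3.38 ± 0.12, limma adjusted p = 5.19e-05). Such folds, here and below, leave out the counting error of the WT reads. Ighv7-3 was likewise without reads in KO and at 5.87, 9.88 and 6.20 FPKM in WT, at least 38.1-fold lower in KO. Ighv1-53 had none in KO and 5.33, 4.60 and 5.92 FPKM in WT, at least 26.7-fold lower in KO. These 3 segments are the ones at 0 in KO among the heavy chain members named by level or by the size of the fall.

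Other much-used heavy chain segments kept 1 to 3 reads in KO, so their folds are wide. Ighv5-16 had 1 read in KO and 96 reads in WT, a ratio of 94.3 with a counting interval of 18.2 to 4138. Ighv10-1 had 1 and 55 reads, in KO and in WT, a ratio of 63.2 (10.2 to 2389). Ighv9-3 had 3 reads in KO and 58 reads in WT, a ratio of 20.5 (6.80 to 104). Ighv1-26 had 1 read in each KO library and 22, 11 and 16 reads in WT, a ratio of 17.2 (5.69 to 88.5). All 4 were called lower in KO, with limma adjusted p between 3.40e-04 for Ighv1-26 and 0.00425 for Ighv9-3.

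Ighv1-52 was the heavy chain segment with the smallest difference among the tested ones. It had 1.56, 0.722 and 0.570 FPKM in KO, from 7, 4 and 3 reads, and 1.60, 1.94 and 1.82 FPKM in WT, from 9, 8 and 8 reads. KO library 1 came close to the lowest WT library without reaching it, and KO libraries 2 and 3 lay further below. The KO mean of 0.950 ± 0.532 FPKM was 1.88-fold below the WT mean of 1.79 ± 0.171 FPKM (SD, n = 3 each; counting interval of the ratio 0.965 to 4.01), and the difference of -0.55 ± 0.19 (log2, SE) did not pass the test (limma adjusted p = 0.0787). Without KO library 1 it was -0.76 and passed (limma adjusted p = 0.00876). Its share of Ighv reads was 18.4%, 14.3% and 12% in KO and 1.62%, 1.41% and 1.40% in WT, and no KO interval (lowest bound 2.55%, exact Clopper-Pearson, 95%) reached down to the WT shares. These shares describe a segment named for its small difference and are not tested.

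Ighv1-52 (chr12:115145487-115145919) is shown beside Ighv1-53 (chr12:115158403-115158835), of the same subgroup and transcript length, because Ighv1-53 had no read in KO while Ighv1-52 kept 14. Over 351 bases they differ at 28 positions (92.0% identity), of which 26 lie in the last 300 bases, printed here with the differing bases in capitals.
Ighv1-52: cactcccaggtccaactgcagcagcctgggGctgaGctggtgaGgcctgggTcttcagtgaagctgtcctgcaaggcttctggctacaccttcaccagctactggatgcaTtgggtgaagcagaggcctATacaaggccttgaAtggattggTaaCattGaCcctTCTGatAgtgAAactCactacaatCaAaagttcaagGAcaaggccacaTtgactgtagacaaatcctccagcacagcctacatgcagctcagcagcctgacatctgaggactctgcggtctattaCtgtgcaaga
Ighv1-53: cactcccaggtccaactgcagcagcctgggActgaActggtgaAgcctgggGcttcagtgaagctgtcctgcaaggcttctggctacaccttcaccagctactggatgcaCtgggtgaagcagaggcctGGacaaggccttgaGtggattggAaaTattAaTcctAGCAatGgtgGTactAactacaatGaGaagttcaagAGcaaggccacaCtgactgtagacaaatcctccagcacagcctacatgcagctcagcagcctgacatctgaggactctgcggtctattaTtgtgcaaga
The nearest V segment to Ighv1-52 is Ighv1-61, looked up after the values were seen, at 98.6% identity. Ighv1-61 had 1 read in KO library 1 and 1 read in WT library 3, and the treatment of reads that match both copies is not stated.

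The other heavy chain segments with small falls rested on few reads. Ighv1-9 had 2, 5 and 0 reads in KO and 8, 2 and 9 reads in WT, with overlapping groups (log2 difference -0.67 ± 0.33, limma adjusted p = 0.188). Ighv5-6 had 1, 0 and 0 reads in KO and 1, 8 and 3 reads in WT, also overlapping (-0.75 ± 0.32, limma adjusted p = 0.137, and 0.0386 without WT library 1). Of the 34 tested Ighv members, 29 were called lower; Ighv14-3 and Ighv1-18 were the remaining ones not called, at limma adjusted p = 0.0579 and 0.0596, both named here because of those values. The 21 called Ighv members outside the named ones averaged 0 to 0.211 FPKM in KO and 1.02 to 3.48 FPKM in WT, with log2 differences of -1.98 to -0.91. None of these 21 overlapped between the groups, and 7 had no read in KO. These members were picked as called and passed the filter only through WT, so their separation was close to given. Among all genes tested, every KO value lay below every WT value for 19.9%.

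**Figure D2:**
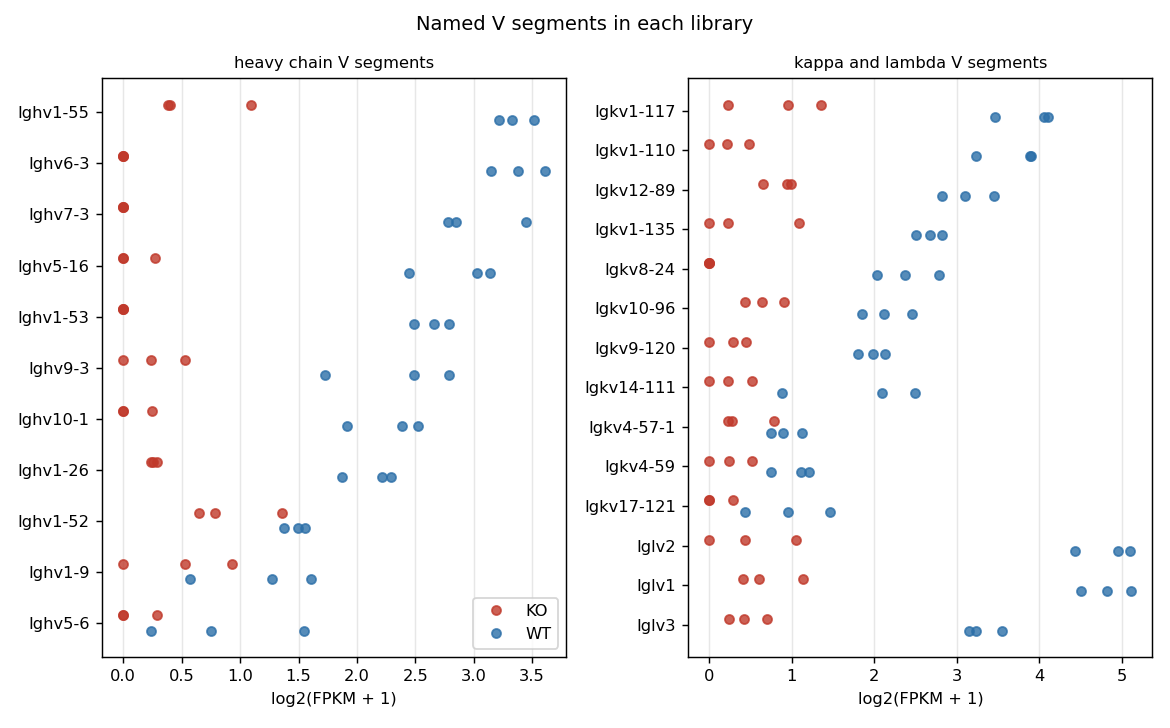
Each named V segment in each library as log2(FPKM + 1), heavy chain on the left and light chains on the right, with KO points above WT points in a row. WT points lie to the right of KO points for most segments, while those of Ighv1-9, Ighv5-6 and Igkv4-57-1 overlap and those of Ighv1-52 lie close.

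Among kappa V members, Igkv1-117 (chr6:68121046-68121827) had the highest mean and Igkv1-110 (chr6:68270485-68271267), of the same subgroup, came next. Igkv14-126, outside the rule, averaged more, at 53.6 FPKM in WT. Igkv1-117 stood at 1.55, 0.941 and 0.165 FPKM in KO and at 10.03, 16.2 and 15.6 FPKM in WT, 15.8-fold lower in KO (log2 difference -3.03 ± 0.31, limma adjusted p = 0.00157). Igkv1-110 stood at 0.390, 0.158 and 0 FPKM in KO and at 8.40, 13.8 and 13.9 FPKM in WT. Its 3 KO reads against 189 WT reads give a ratio of 65.9 with a counting interval of 22.9 to 333 (-3.44 ± 0.22, limma adjusted p = 2.55e-04). Neither segment overlapped between the groups. As a share of Igkv reads, Igkv1-117 was 12.4% in KO and 13.5% in WT, and Igkv1-110 was 2.35% in KO and 11.6% in WT (means of 3 libraries each).

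Igkv12-89 kept the most reads in KO after Igkv1-117 among the named kappa segments. It stood at 0.925, 0.562 and 0.987 FPKM in KO and at 6.09, 7.54 and 9.93 FPKM in WT, 9.52-fold lower in KO (log2 difference -2.26 ± 0.18, limma adjusted p = 5.71e-04). Igkv10-96 stood at 0.871, 0.353 and 0.558 FPKM in KO and at 2.61, 4.50 and 3.34 FPKM in WT, 5.86-fold lower in KO (-1.48 ± 0.19, limma adjusted p = 0.00325). Its share of Igkv reads was 9.09%, 5% and 12% in KO, from 4, 2 and 3 reads, and 2.74%, 3.61% and 2.67% in WT. The exact 95% intervals of the KO shares reach down to 2.53%, 0.61% and 2.55%, and so cover WT shares.

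Igkv8-24 had no read in KO and 3.08, 4.19 and 5.91 FPKM in WT, at least 23.1-fold lower in KO (log2 difference -2.40 ± 0.19, limma adjusted p = 5.71e-04). Igkv1-135 was absent from KO library 1 but had 7 reads in KO library 2 and 1 in KO library 3, against 34, 28 and 23 reads in WT, 12.4-fold lower in KO. Igkv9-120, with 3 reads in KO and 41 in WT, gave a ratio of 15.1 (counting interval 4.71 to 74.5). Igkv14-111, with 3 reads in KO and 40 in WT, gave a ratio of 14.6 (4.59 to 72.8). The first 3 of these 4 were called with every library in the fit and with any 1 library left out. Igkv14-111 was called (limma adjusted p = 0.0321) but not without KO library 1, 2 or 3 (0.0526, 0.0920 and 0.0994) or WT library 2 or 3 (0.0844 and 0.102).

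The kappa segments with the smallest falls were Igkv4-57-1, Igkv4-59 and Igkv17-121. Igkv4-57-1 had 1, 1 and 4 reads in KO and 7, 3 and 4 reads in WT and was not called (log2 difference -0.49 ± 0.18, limma adjusted p = 0.0934, and 0.0429 without KO library 3). Igkv4-59 had 2, 0 and 1 reads in KO and 4, 5 and 6 reads in WT and was called (-0.77 ± 0.18, limma adjusted p = 0.0246), but not without KO library 2 or 3 (0.0749 and 0.0764) or WT library 2 (0.0801). Igkv17-121 had 1, 0 and 0 reads in KO and 2, 4 and 8 reads in WT and was not called (-0.85 ± 0.26, limma adjusted p = 0.0558, and 0.0157 without WT library 1). Of the 32 tested Igkv members, 30 were called lower in KO. The 21 called ones outside the named segments averaged 0 to 0.205 FPKM in KO and 0.996 FPKM or more in WT, with log2 differences of -1.97 to -0.89. None of these 21 overlapped between the groups, and 10 had no read in KO. As in Ighv, they were picked as called with KO means below the 0.5 FPKM filter, so their separation was close to given. The share of all genes tested with every KO value below every WT value was 19.9%.

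Lambda V segments, although only 3, included the most abundant V members of the WT libraries by FPKM. Iglv1 (chr16:19085017-19085500) stood at 1.20, 0.324 and 0.512 FPKM in KO and at 21.7, 27.4 and 33.7 FPKM in WT, 40.7-fold lower in KO (log2 difference -4.10 ± 0.23, limma adjusted p = 1.84e-04). Iglv2 (chr16:19260401-19260859) stood at 1.07, 0.346 and 0 FPKM in KO and at 20.6, 33.2 and 29.9 FPKM in WT, 59.2-fold lower in KO (-4.33 ± 0.29, limma adjusted p = 3.43e-04). In WT their means of 27.6 ± 6.01 and 27.9 ± 6.52 FPKM (SD, n = 3) did not differ beyond their spread. Iglv3 (chr16:19241207-19241690), the divergent one, stood at 0.615, 0.333 and 0.175 FPKM in KO and at 7.86, 10.7 and 8.39 FPKM in WT, 24.0-fold lower in KO (-2.86 ± 0.16, limma adjusted p = 1.73e-04). None of the 3 overlapped between the groups, where every KO value lay below every WT value for 19.9% of all genes tested. Of the 3, 2 passed the filter only through WT.

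All 4 heavy chain J segments were called lower in KO, against 12.4% of all genes tested, and 2 of them passed the filter only through WT. Since J segments are 38 to 100 bases long, 1 read weighs much in FPKM: 1 read of Iglj1 came to 2.06 FPKM in KO library 1. Ighj4 had 1 read in each KO library and 24, 27 and 19 reads in WT, a ratio of 25.5 (counting interval 8.28 to 125). Ighj3 had 0, 0 and 3 reads in KO and 18, 18 and 24 reads in WT, a ratio of 22.8 (7.05 to 108). Ighj2 had no read in KO and 12, 5 and 10 reads in WT, at least 9.47-fold lower in KO. Ighj1 had no read in KO and 1, 1 and 2 reads in WT. Its ratio was 1.47 at the floor of 3 KO reads, with the counting error of its WT reads left out. Limma adjusted p was 8.73e-05 for Ighj4, 0.00619 for Ighj3, 4.18e-04 for Ighj2 and 0.00546 for Ighj1, the last on 4 reads in all. In WT the 161 Ighj reads were shared as 43.5% Ighj4, 37.3% Ighj3, 16.8% Ighj2 and 2.48% Ighj1, while KO held 6 Ighj reads, too few for an order.

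All 5 kappa J segments were called lower in KO, against 12.4% of all genes tested, and 2 of them passed the filter only through WT. Igkj4 had the largest difference. It had no read in KO and 32.8, 22.4 and 25.2 FPKM in WT, from 20, 10 and 12 reads, at least 14.7-fold lower in KO (log2 difference -4.78 ± 0.14, limma adjusted p = 2.51e-05). Igkj5 stood at 1.86, 3.02 and 7.94 FPKM in KO and at 19.3, 54.6 and 38.04 FPKM in WT, 8.73-fold lower in KO (-2.91 ± 0.52, limma adjusted p = 0.00974). It held 8 of the 11 Igkj reads of KO, against 60 of 183 in WT. Igkj3, without the phenylalanine-glycine letters, had 2 reads in KO and 37 reads in WT, a ratio of 17.2 (counting interval 5.16 to 171). Igkj2 had 1 and 32 reads, in KO and in WT, a ratio of 36.7 (5.77 to 1408). Igkj1 had none in KO and 9, 2 and 1 reads in WT, a ratio of 3.89 at the floor of 3 KO reads (limma adjusted p = 0.0152, but 0.0529 without KO library 2 and 0.0525 without KO library 3).

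Of the 3 lambda J members, Iglj1 had 1, 0 and 0 reads in KO and 2, 7 and 5 reads in WT, a ratio of 14.3 (counting interval 2.30 to 639.5). It was called (limma adjusted p = 0.0242), but not without KO library 2 or 3 (0.0817 and 0.0802) or WT library 2 or 3 (0.0763 and 0.0807). Iglj3p had none in KO and 3, 2 and 1 reads in WT, a ratio of 2.10 at the floor of 3 KO reads (limma adjusted p = 0.00188). Iglj3 had none in KO and 0, 4 and 4 reads in WT and was not called (limma adjusted p = 0.111, and 1.04e-04 without WT library 1). Iglj2 was listed at 0 throughout while Iglc2, a constant segment of the lambda chain, had 30 reads in KO and 995 reads in WT.

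**Figure D3:**
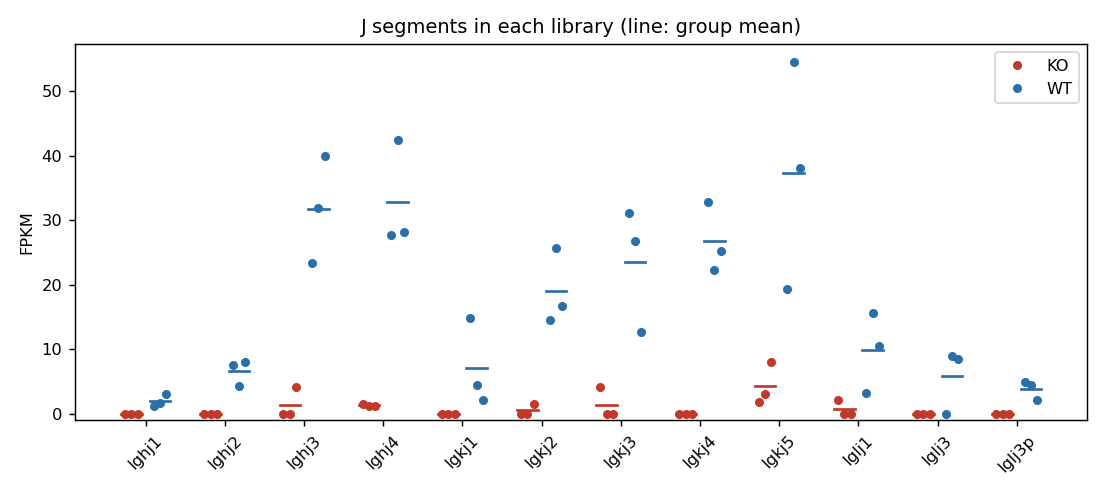
FPKM of each of the 12 J members in each library (points; lines are group means, n = 3), KO left of WT at each segment. KO points sit at or near 0, with 7.94 FPKM for Igkj5 as the highest, while WT points reach 54.6 FPKM.

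Within the V reads that remained, composition was compared as shares, which do not depend on library scaling. The kappa share of light chain V reads was 75.9%, 87.0% and 86.2% in KO, from 58, 46 and 29 reads, with exact 95% intervals of 62.8 to 86.1%, 73.7 to 95.1% and 68.3 to 96.1%. It was 64.2%, 62.4% and 62.1% in WT, from 853, 844 and 903 reads, with intervals no wider than 58.9 to 67.5%. The groups did not overlap, and the means were 83.0 ± 6.20% in KO and 62.9 ± 1.14% in WT (SD, n = 3 each), although the interval of KO library 1 reaches below the share of WT library 1. Here the 4 segments outside the rule matter. They took 7.29% of V reads in KO and 26.2% in WT (means), led by Igkv14-126 with 2, 4 and 4 reads in KO and 250, 274 and 234 reads in WT. With them counted, the kappa share was 76.7%, 88.0% and 87.9% in KO and 73.8%, 73.0% and 71.4% in WT, and the gap between the means shrank to 11.4 from 20.1 percentage points. In constant region reads, Igkc against lambda stood at 90 to 16, 70 to 32 and 89 to 10 in KO libraries 1 to 3. WT libraries 1 to 3 held 1771 to 572, 1823 to 499 and 1876 to 562. KO library 2 thus lay further toward lambda than any WT library, so on constant reads the groups overlapped.

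The number of different segments in use was compared at equal reads. At 25 reads, the expected number of Ighv segments was 14.9, 15.8 and 19.0 in KO and 18.05, 18.05 and 18.3 in WT, so the groups overlapped. That of Igkv segments was 15.5, 15.6 and 14.0 in KO and 17.5, 16.5 and 16.6 in WT, lower in all KO libraries. The Ighv means differed by -1.58 segments, by -0.74 without KO library 1 and by -2.81 without KO library 3, the one at 19.0. Counting the 4 segments outside the rule, also at 25 reads, turned both differences of the means round, to 0.76 more Ighv and 1.25 more Igkv segments in KO, with overlapping groups, an alternative chosen after seeing the data. Neither order therefore holds apart from the choice of members. With all its reads, a KO library showed 17 to 19 Ighv and 14 to 21 Igkv members, and a WT library 72 to 77 Ighv and 72 to 76 Igkv members.

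**Figure D4:**
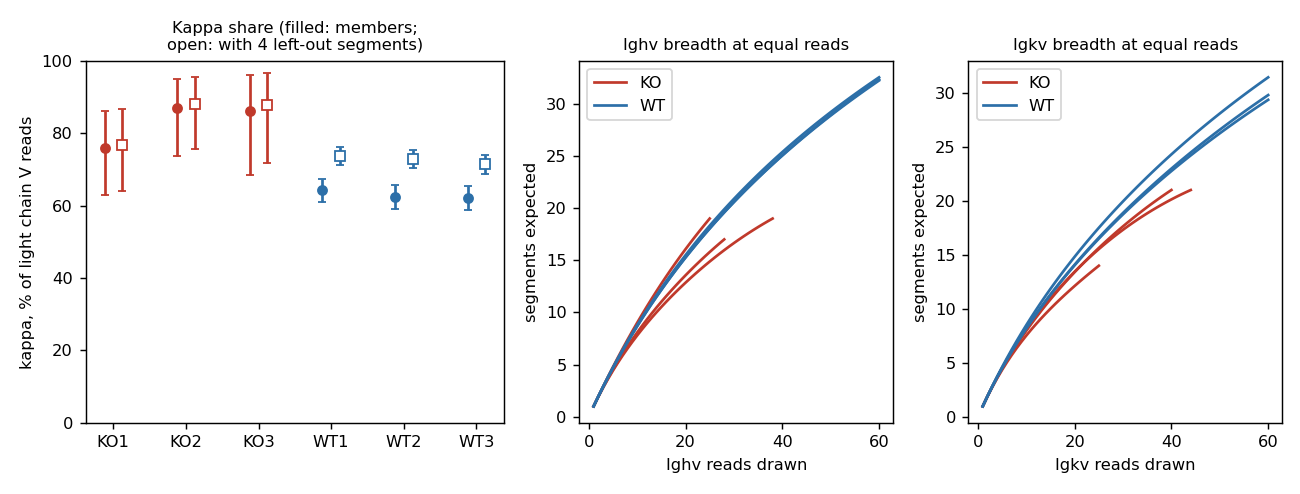
Left: kappa share of light chain V reads per library with exact 95% intervals, filled for members and open with the 4 further segments, KO libraries left of WT libraries. Middle and right: expected number of Ighv and Igkv segments against reads drawn, 1 line per library, where KO lines end early at 25 to 44 reads and lie below the WT lines, except 1 KO line for Ighv that ends above them at 19.0 segments.

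WT libraries shared their most used members, although Ighv11-2 and Igkv14-126, outside the rule, were read more. Ighv1-55 was the most read Ighv member and Igkv1-117 the most read Igkv member in each WT library, and across segments the read shares of WT pairs correlated at 0.910 to 0.918 for Ighv (Pearson, 90 segments) and 0.942 to 0.966 for Igkv (84 segments). By rank the same pairs correlated less, at 0.663 to 0.724 for Ighv and 0.678 to 0.732 for Igkv (Spearman). Segments are not independent replicates, and the pairs share segment lengths. In KO the leading Ighv member was Ighv1-52, Ighv1-9 and Ighv1-52 in libraries 1 to 3, and the leading Igkv member was Igkv1-117, Igkv1-135 and Igkv12-89. With 25 to 38 Ighv and 25 to 44 Igkv reads per KO library, a leading segment rests on a handful of reads.

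By subgroup, the Ighv1 segments took 71.1%, 53.6% and 56.0% of Ighv reads in KO and 44.0%, 38.1% and 43.0% in WT, which did not overlap. Without Ighv1-52 the shares were 64.5%, 45.8% and 50% in KO and 43.1%, 37.3% and 42.2% in WT, still without overlap. The Ighv6 segments had 0 of 91 Ighv reads in KO, which allows a share of up to 3.30%, and 170 of 1696 in WT, or 10.02%. The Ighv7 segments had 1 read in KO and 122 in WT, and the Ighv5 segments 7 reads in KO and 200 in WT. Ighv2 segments took 10.5%, 3.57% and 12% in KO and 9.16%, 8.44% and 9.47% in WT, overlapping. Of kappa reads, the Igkv1 subgroup took 22.7%, 42.5% and 8% in KO and 29.7%, 33.0% and 32.1% in WT, also overlapping.

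By position, the 30 Ighv members farthest from the J segments took 57.9%, 28.6% and 48.0% of Ighv reads in KO and 33.0%, 32.5% and 30.0% in WT, and the groups overlapped. The 28 farthest Igkv members took 59.1%, 60% and 28.0% of Igkv reads in KO and 49.1%, 55.6% and 51.7% in WT, again overlapping. Kappa segments on the plus strand, the strand of the Igkj segments, took 40.9%, 65.0% and 32.0% in KO and 48.9%, 55.6% and 52.9% in WT, also overlapping.

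**Figure D5:**
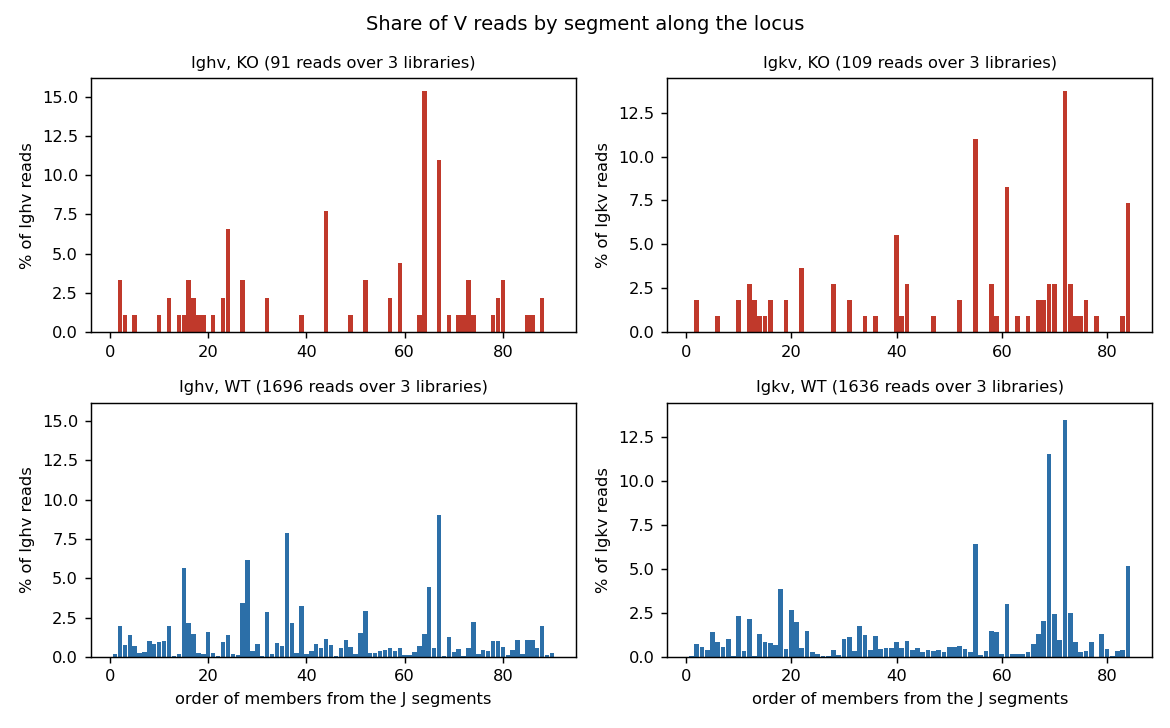
Share of V reads of each Ighv (left) and Igkv (right) member, pooled over 3 libraries, KO in the upper row and WT in the lower, ordered by distance from the J segments with 1 the nearest. Reads in WT are spread along both loci, and the 91 Ighv and 109 Igkv reads of KO also come from both ends.

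V segments fell along with the constant regions they are transcribed with. Ighm, the constant region of IgM, averaged 10.6 ± 1.85 FPKM in KO and 270.6 ± 31.5 FPKM in WT (SD, n = 3 each), and Igkc, that of kappa, 10.9 ± 2.45 FPKM in KO and 260.1 ± 45.7 FPKM in WT. Of 13 constant genes, 7 of 9 tested were called lower and none higher; Igha, that of IgA, averaged 1.45 FPKM in KO and 1.19 FPKM in WT and was not called (limma adjusted p = 0.682). For each 100 reads of heavy constant genes there were 9.13, 7.02 and 7.53 reads of Ighv members in KO and 7.45, 8.46 and 7.82 in WT, so the KO range held the WT range. For each 100 constant reads of any chain there were 18.4, 14.8 and 12.5 member V reads in KO and 14.4, 15.6 and 15.1 in WT. The ratio of Igkv to Igkc reads, per 100, was 48.9, 57.1 and 28.1 in KO and 30.9, 28.9 and 29.9 in WT, overlapping. These ratios leave out the 4 segments outside the rule. Those held 17 reads in KO and 1523 in WT, beside 224 and 4296 member V reads. Counting them would raise the WT ratios more than the KO ones, so these comparisons describe members only.

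B cell genes moved the same way as the segments. Of 15 B cell markers, 12 of 13 tested were lower in KO and none higher. The shares to set beside this and the other gene lists are 12.4% of all genes tested called lower and 15.7% higher. The summed level of the B cell markers was 57.5 to 60.2 FPKM in KO and 189 to 228 FPKM in WT. Cd79a, the signalling chain of the B cell receptor, averaged 3.21 ± 0.900 FPKM in KO and 49.2 ± 4.76 FPKM in WT. The exception was Cd37, at 44.9 FPKM in KO and 41.1 FPKM in WT, which made up most of the summed KO level. No B cell marker was at 0 in every library. Of 8 markers of B-1 and innate-like B cells, 5 were lower and 1 higher, the last being Itgam, which is also counted among the macrophage markers. Of 9 T cell markers, 5 of 6 tested were lower, with sums of 4.18 to 5.79 FPKM in KO and 14.6 to 17.3 FPKM in WT. Of 9 macrophage markers, 4 were higher and 1 lower, with sums of 8478 to 9155 FPKM in KO and 4735 to 5531 FPKM in WT. Most of these sums came from Lyz2, at 4431 FPKM in KO and 2204 FPKM in WT, and Cd14, which was not called. The lower marker was Fcgr1, at 1.24 FPKM in KO and 4.75 FPKM in WT. The part of cell makeup in the segment differences was not tested.

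The regulators and machinery of these loci did not move together. Pou2af1, the B cell coactivator that binds octamer factors at V promoters, averaged 0.867 ± 0.0716 FPKM in KO and 15.7 ± 2.55 FPKM in WT (limma adjusted p = 6.58e-05), and Pou2f2, a lymphoid octamer factor, 0.939 ± 0.411 FPKM in KO and 6.86 ± 2.13 FPKM in WT (limma adjusted p = 0.00239). Pou2f1, the ubiquitous octamer factor, averaged 1.22 FPKM in KO and 1.36 FPKM in WT and was not called. Of 14 recombination and joining genes, 1 of 10 tested was lower, Xrcc5, which holds broken DNA ends, at 0.179 ± 0.0465 FPKM in KO and 1.17 ± 0.376 FPKM in WT. The recombinase gene Rag1 had 4 reads in KO and 6 in WT and Rag2 was listed at 0, and among 8 precursor B cell genes Igll1 was also at 0 and only Il7r was tested, being higher in KO. Of 6 hypermutation genes, 1 of 2 tested was lower, the mismatch repair gene Msh6, at 1.47 ± 0.0232 FPKM in KO and 3.05 ± 0.310 FPKM in WT.

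Antibody-secreting cell genes were mixed. Of 10 plasma cell markers, 3 of 8 tested were lower and 1 higher in KO. The higher gene was Sdc1, at 82.4 ± 6.97 FPKM in KO and 56.6 ± 0.634 FPKM in WT (limma adjusted p = 0.00569). Slamf7, Prdm1 and Fkbp11 were not called, and Irf4 was lower, at 5.83 FPKM in KO and 20.7 FPKM in WT. Mzb1, a chaperone of IgM assembly, averaged 0.811 ± 0.0642 FPKM in KO and 23.8 ± 1.33 FPKM in WT, and Jchain, which links IgM and IgA into polymers, 0.268 ± 0.0784 FPKM in KO and 0.871 ± 0.239 FPKM in WT. Xbp1, a secretory regulator that many cells express, averaged 28.8 FPKM in KO and 33.2 FPKM in WT and was not called, and Tnfrsf17 was listed at 0. Other rearranging or germline segments were scarce in both groups. The 155 V pseudogenes of the antibody loci had 9 reads in KO and 36 in WT, the 19 D segments 1 read in each group, the 144 T cell receptor V segments 35 reads in KO and 68 in WT, and the 70 T cell receptor J segments 14 reads in KO and 37 in WT, with 10 tested and none called (limma).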

How the data were processed

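The authors deposited 1 table of FPKM values per Ensembl gene with biotype, coordinates and length. The build was GRCm38, also written mm10, per the submitters' processing notes. For the aligner, counter, annotation release and strand setting, what was used is not given in the sources used here. In the labels, the text names retinas, while every other label names macrophages. In each library, FPKM times length fell on whole multiples of a single step (within 0.05) for all values above 0, and the multiples were taken as reads. The FPKM sums differ between libraries and keep the authors' scaling.

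The members and all lists were chosen with earlier results of these data known. Values were analysed as log2(FPKM + 1) with limma 3.58.1 in R 4.3.3 (genotype only, eBayes with intensity trend) over genes averaging at least 0.5 FPKM, adjusted by Benjamini-Hochberg over all of them, and called at 0.05. Log2 differences are KO minus WT on that scale, which understates low genes. Folds are ratios of mean FPKM, with 3 reads over the KO group where it had none. Intervals (Clopper-Pearson, 95%) cover counting error only, and floors that of the KO reads alone. Named were all J and Iglv members and, in Ighv and Igkv, the 8 highest means and the 3 largest and 3 smallest falls. Sequences are GENCODE M21 transcripts, found for all 232 segments. Promoter and recombination signal motifs were not analysed here.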

Additional observations from a re-analysis of the deposited data

How the results depend on the processing

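No member was called higher in KO under any setting run, and the log2 ratio of the summed level stayed between -4.58 and -4.20, the range over single libraries left out, with -4.49 in TPM, -4.55 in reads scaled to the library total and -4.56 without the highest segment of each prefix. The count of 73 of 81 members called lower was 76 with a pseudocount of 0.1, 69 after quantile normalization and 73 without the intensity trend. Other settings tested other numbers, with 87 of 190 called with no filter, 105 of 140 in TPM and 24 of 25 with a mean of at least 2 FPKM. It was 55 to 73, of 67 to 91 tested, with single libraries left out and 78 of 86 without both replicate 1 libraries. Over all genes, 1445 of 11689 were called lower in the main fit and 1187 of 28477 with no filter. In TPM this was 1324 of 15259, and with a mean of at least 2 FPKM 876 of 7702. No label says that replicate numbers pair the libraries. Same-numbered KO and WT libraries deviated with correlations of -0.50, -0.19 and -0.16. Taken from means of 3 libraries, these deviations cannot settle whether the libraries were paired. A fit with the replicate number as a block called 61 of 81 members lower, beside 604 of all 11689 genes tested. The kappa gap was 20.1 percentage points, 18.1 to 23.6 with single libraries left out, and 11.4 with the 4 segments outside the rule. The difference in expected Ighv segments of -1.58 became 0.76 with those 4 at 26 reads, 0.76 with them at 25 reads, and -2.81 to -0.74 with single libraries left out. That in Igkv segments of -1.81 became 1.21 with those 4 at 29 reads, 1.25 with them at 25 reads, and -2.10 to -1.28 with single libraries left out. The second lowest depth, which also drops KO library 3, gave -3.21 for Ighv and -2.78 for Igkv. The values at 25 reads with those 4 and with single libraries left out were chosen after seeing the data, and the causes were not tested. No named segment changed sign under any setting. With no filter and with the replicate block Igkv14-111, Igkv4-59 and Iglj1 lost their calls, and after quantile normalization Igkv4-59 did. Igkv17-121 gained one with a pseudocount of 0.1 and in TPM, and without both replicate 1 libraries Ighv1-52, Ighv5-6, Igkv17-121 and Iglj3 did. On log2 CPM of the recovered reads Ighj1 lost its call (limma adjusted p = 0.0844) and Igkv17-121 gained one (0.0314). KO libraries held 54 to 96 member V reads, so shares there are known only within wide intervals.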
